A study of Arabidopsis thaliana with 6 samples.

Results

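Cytochrome P450 genes encode haem-containing monooxygenases, one of the largest enzyme families of plants. The members were the nuclear protein-coding genes of Arabidopsis whose symbol or synonym is CYP followed by a family number, a subfamily letter and a gene number. This gave 234 genes in 45 families, of 27444 nuclear protein-coding genes, with 219 found by symbol and 15 by synonym, among them CPD, FAH1 and PAD3. The question was where peaks of EBS (EARLY BOLTING IN SHORT DAYS), a reader of methylated histone H3 that holds back flowering, lay at these genes.

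The study used chromatin immunoprecipitation and sequencing (ChIP-seq). The material was whole seedlings of Col-0 background, harvested at about 10 days from 1/2 MS plates under long days (16 h of light, 8 h of darkness). All samples came from the ebs shl double mutant, which lacks EBS and its relative SHL, rescued with EBS carrying a FLAG tag under the EBS promoter. Anti-FLAG antibody gave 3 ChIP samples, and 1 peak list was made per ChIP sample. The 3 input DNA samples enter no value below on their own. The lists held 5237, 4216 and 3661 nuclear peaks in replicates 1, 2 and 3, the read depth behind them is unknown, and whether the replicates came from separate plantings is not stated in the labels. The samples include no ChIP of untagged plants, so a peak here means enrichment in the anti-FLAG sample as the authors' caller scored it. Whole seedlings mix cell types, and a peak in few cells cannot be told apart from a weak peak in many.

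P450 enzymes of plants are commonly anchored in the endoplasmic reticulum and receive electrons from NADPH-cytochrome P450 reductases. They are grouped into families by sequence and families into clans. The CYP71 clan, also called A-type, serves largely specialised metabolism such as glucosinolates and phenylpropanoids, while the CYP72, CYP85 and CYP86 clans hold many enzymes of hormone and fatty acid metabolism. Many P450 genes stand in tandem clusters of close relatives. A gene was called bound in a replicate when a peak of that list overlapped its body or 1000 bp on either side by at least 1 bp. The gene table has no strand, so neither side could be called upstream.

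P450 genes carried a peak about as often as other genes in single lists, but seldom in the same gene in every list. Bound P450 genes numbered 45 (19.2%), 32 (13.7%) and 25 (10.7%) in replicates 1, 2 and 3, where 20.8%, 17.1% and 11.7% of all protein-coding genes were bound. The P450 share was thus lower in each of the 3 lists, by 2.03 ± 1.27 percentage points (mean ± SD, n = 3). This small difference depended on how peaks were assigned: it was -0.308 ± 0.717 points with gene bodies alone and 0.156 ± 0.796 points when each peak counted only for the gene window it overlapped most. No test was run over the members, since they were proposed with results of these data known. The median length of P450 genes was nearly that of genes at large (2081 and 2078 bp), but their lengths spread less. The lower and upper quartiles were 1873 and 2560 bp for P450 genes and 1323 and 3030 bp for all genes.

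In at least 1 list 78 P450 genes were bound (33.3%), against 31.7% of all genes. Of these 78 genes, 60 were bound in 1 list alone, 12 in exactly 2 and 6 in all 3. Among all genes 19.7% were bound in exactly 1 list, 5.84% in exactly 2 and 6.09% in all 3, whereas all 3 lists held a peak at 2.56% of the P450 genes. Put as a share of the genes bound anywhere, 7.69% of the P450 genes and 19.2% of all genes were bound in every list. At least 2 lists held a peak at 18 P450 genes (7.69%), against 11.9% of all genes. The size of this gap depended on how peaks were assigned. The 2 shares were 6.41% and 7.67% with gene bodies alone and 6.41% and 7.28% when each peak counted for 1 gene. With peaks of a score of at least 100 they were 0.855% and 4.54%. Peaks of replicate 1 alone lay at 30 P450 genes, of replicate 2 alone at 16 and of replicate 3 alone at 14. These were 38.5%, 20.5% and 17.9% of the bound P450 genes, where the same patterns made up 31.1%, 20.3% and 11.0% of all bound genes. The remaining 156 P450 genes had no peak within 1000 bp in any list.

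Strong peaks were few at P450 genes. Each peak carries the authors' score, equal in this caller's output to the peak's negative log10 p multiplied by 10, and the lowest score in these lists is 20. A peak with a score of at least 100 lay at 3 P450 genes in replicate 1 (1.28%), 2 in replicate 2 (0.855%) and 6 in replicate 3 (2.56%). The same score was reached at 4.55%, 4.96% and 5.83% of all genes. The difference was -3.54 ± 0.483 percentage points (SD, n = 3) and lay below 0 in all 3 lists. Scores depend on depth and control, so a score of 100 does not mean the same in each list. The median score of the 43, 38 and 24 distinct peaks at P450 genes was 25.4, 28.6 and 38.4 in replicates 1, 2 and 3, against 29.9, 34.8 and 77.5 for the peaks at all protein-coding genes.

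**Figure D1:**
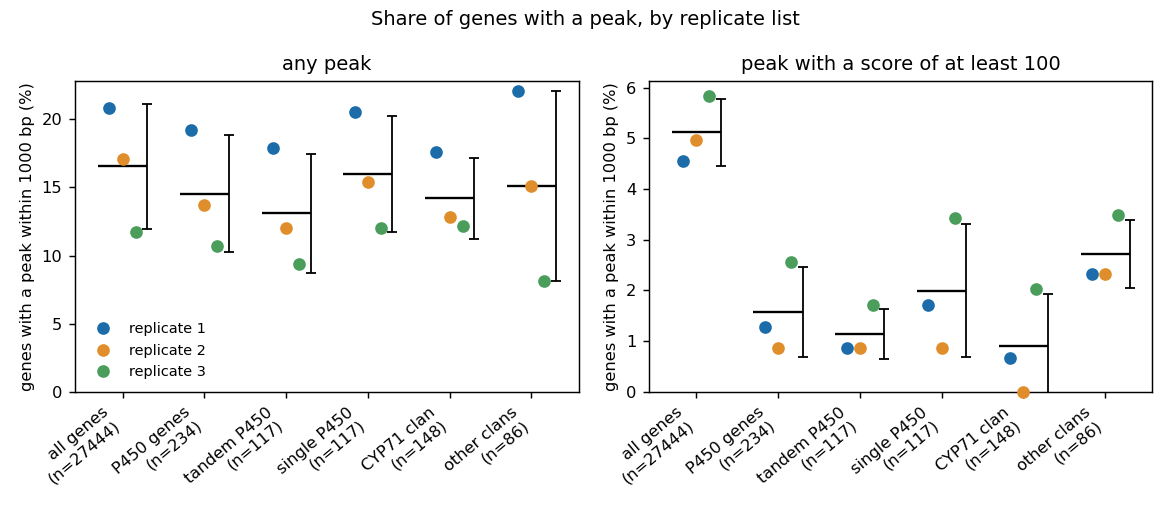
Share of genes (%, y axis) with a peak within 1000 bp in each replicate list, for any peak (left) and for peaks with a score of at least 100 (right); points are the 3 replicates, horizontal lines their mean and vertical bars the SD over replicates. For any peak the P450 genes (19.2%, 13.7% and 10.7%) sit close to all genes, while for scores of at least 100 the P450 points (1.28%, 0.855% and 2.56%) all lie below those of all genes.

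For 70 of the 105 peaks at P450 genes, counted by list, the annotated locus overlapped by most bases was a P450 gene. For another 25 it was a different locus, and 10 overlapped none. This ranks loci by bases and does not say where most of a peak lay. The CYP82C2 peak had 16.2% inside the P450 gene that it was counted for. The CYP77A4 peak lay wholly inside its gene but was counted for AT5G04670, which it overlapped by as many bases. A peak reached the body of 34, 26 and 17 P450 genes in replicates 1, 2 and 3 (14.5%, 11.1% and 7.26%), where bodies of 14.3%, 12.2% and 7.36% of all genes were reached. On gene bodies alone the P450 shares and the shares of all genes therefore differed by about a percentage point or less. A body peak covered a median of 26.9% of the P450 gene. Over all lists 56 P450 genes had a peak on the body and 22 only in the flank.

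The 6 P450 genes bound in all 3 lists were CYP72A13, CYP89A2, CYP78A7, CYP81F4, CYP81G1 and CYP83B1. All 6 had a peak on the body in every list, which 3.75% of all genes had. They are described here as values without a test, since binding in every list selected them. In 5 of the 6 the peaks of every pair of lists overlapped, and in CYP83B1 only those of replicates 2 and 3 did. How often peaks overlap in all genes bound in 3 lists was not counted. They belong to 5 families, and 5 of the 6 genes are of the CYP71 clan, which holds 148 of the 234 members. All 3 lists held a peak at 3.38% of the CYP71 clan genes and 1.16% of those of the other clans. Both shares were below the 6.09% of all genes.

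CYP72A13 (AT3G14660), a gene of a cluster of CYP72A genes, had the highest score of any P450 gene in each list. Its scores were 1327 in replicate 1, 1331 in replicate 2 and 689 in replicate 3, which placed them at the 94.3rd, 92.5th and 84.7th percentile of the nuclear peaks of their lists. These peaks spanned chromosome 3 from 4927251 to 4928089, from 4927418 to 4928348 and from 4927257 to 4928109 (TAIR10, counted from 1). They lay across one end of the gene, with 42.6%, 20.4% and 41.1% of the peak inside it, and overlapped the neighbouring gene AT3G14670 by more bases than CYP72A13. When each peak counted for 1 gene only, the number of P450 genes bound in every list was 3. A second, weaker peak lay wholly inside CYP72A13 in replicates 2 and 3, with scores of 39.9 and 33.8.

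CYP89A2 (AT1G64900) had scores of 118, 73.3 and 541 in replicates 1, 2 and 3. Its peaks lay on chromosome 1 from 24112856 to 24113729, from 24112709 to 24114171 and from 24113222 to 24114078, and 71.1%, 72.7% and 100% of each was inside the gene. All 3 lay toward the same end of the gene, and the score in replicate 3 was the second highest of that list among P450 genes. CYP89A7, the next member along the chromosome, had weaker peaks in replicates 1 and 2 (33.2 and 22.3), and CYP89A6 had one in replicate 3 (22.1) off its body. CYP89A9, a family member on another chromosome that acts in the breakdown of chlorophyll, was bound in replicate 1 alone (22.0).

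CYP78A7 (AT5G09970), one of the CYP78A genes known for organ growth, had scores of 38.4, 97.1 and 366. The peaks lay on chromosome 5 from 3112088 to 3112798, from 3111213 to 3114182 and from 3111934 to 3112832. The replicate 2 peak was 2970 bp wide and covered 97.5% of the gene, while the other two lay within its span. Of the other CYP78A genes, CYP78A8 had a replicate 3 peak (22.8), and CYP78A5, whose product promotes leaf and petal growth, had none, like CYP78A6, CYP78A9 and CYP78A10.

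CYP81F4 (AT4G37410) and CYP83B1 (AT4G31500) are both genes of indole glucosinolate metabolism, defence compounds of the cabbage family: CYP83B1 acts in forming the glucosinolate core and CYP81F4 modifies indole glucosinolates. The CYP81F4 scores were 71.4, 72.4 and 23.2, with peaks on chromosome 4 from 17590413 to 17592240, from 17590544 to 17592526 and from 17590810 to 17591620. A second annotated locus, AT4G37409, overlaps CYP81F4 there, and a peak does not tell them apart. At CYP83B1 the scores were only 20.6, 22.4 and 30.7, at the 4.25th, 12.4th and 23.7th percentile of their lists. Its replicate 1 peak (chromosome 4, 15273292 to 15273891) lay at one end of the gene and was separated by 699 and 879 bp from the peaks of replicates 2 (15274591 to 15275185) and 3 (15274771 to 15275392) at the other, so CYP83B1 was bound in every list without a shared site.

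CYP81G1 (AT5G67310) had scores of 31.6, 29.6 and 51.4 on chromosome 5 from 26854023 to 26855291, from 26853895 to 26855476 and from 26854180 to 26855324. Only 5.99%, 16.5% and 9.52% of these peaks lay inside CYP81G1. They lay mainly on the neighbouring gene MYBR1 (AT5G67300), which encodes a MYB transcription factor. The site was thus shared by the 3 lists, but CYP81G1 was at its edge.

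**Figure D2:**
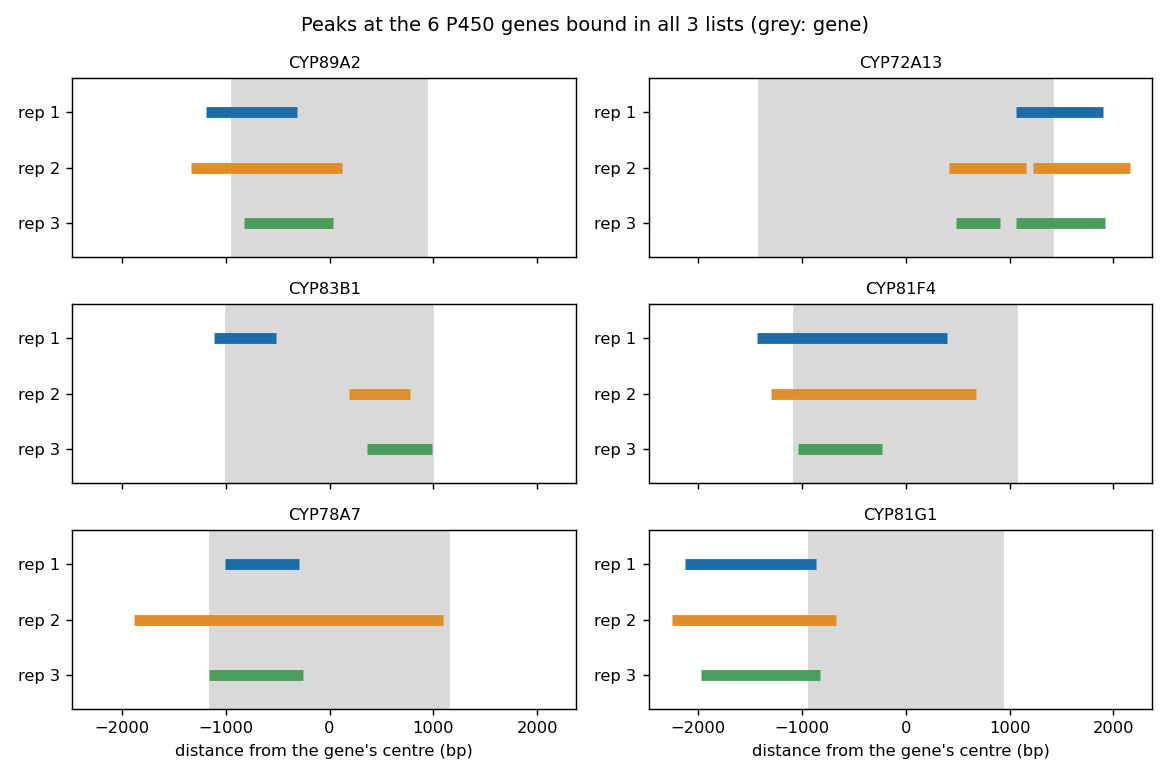
Peaks of replicates 1, 2 and 3 (coloured bars) at the 6 P450 genes with a peak in every list, drawn as distance in bp from the centre of the gene, whose body is shaded grey; the side of the promoter is not known. Peaks coincide at 5 genes, with those of CYP81G1 and the strong ones of CYP72A13 reaching out of the gene, while at CYP83B1 the replicate 1 peak lies at the opposite end from the other two.

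Among the 12 P450 genes bound in exactly 2 lists, 9 had overlapping peaks, a share that was not worked out for all genes. Of the 12, 7 were bound in replicates 1 and 2, 3 in replicates 2 and 3 and 2 in replicates 1 and 3. The same pairs held 1007, 263 and 333 of the 1603 protein-coding genes bound in exactly 2 lists, so replicates 1 and 2 were the commonest pair there too. CPD (CYP90A1, AT5G05690), a brassinosteroid synthesis gene, had 59.3 and 99.6 in replicates 1 and 2, with best peaks on chromosome 5 from 1705447 to 1706870 and from 1705313 to 1706548, both wholly inside the gene. CYP79B2, which makes the aldoxime precursor of indole glucosinolates and camalexin from tryptophan, had 39.6 and 55.4 in the same replicates, on chromosome 4 from 18525229 to 18526254 and from 18525046 to 18526233. Its close relative CYP79B3 had 29.5 in replicate 1 alone, from a peak 522 bp outside the gene.

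CYP86A8, a fatty acid hydroxylase gene of cutin formation, reached 83.6 and 254 in replicates 1 and 2. The replicate 2 score came from a peak on chromosome 2 from 18910094 to 18912105, of which 0.547% was inside CYP86A8 and nearly all on the aquaporin gene PIP1B. A separate peak lay inside CYP86A8 in both lists, from 18912440 to 18914377 with 83.6 in replicate 1 and from 18913341 to 18914741 with 32.9 in replicate 2. In replicate 2 the best score of CYP86A8 therefore stood for a peak on its neighbour, and the peak on its own body was weaker.

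The cytokinin hydroxylase genes CYP735A1 and CYP735A2, the whole of their family, were both bound in replicates 2 and 3 and not in replicate 1. CYP735A1 had 22.7 and 25.0 in these lists, and its peaks overlapped by 108 bp. CYP735A2 had 28.8 and 26.1, but its replicate 3 peak lay 208 bp outside the gene and 152 bp from the other. All 4 scores were low for their lists, between the 14.0th and 33.0th percentile.

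The lignin gene FAH1 (CYP84A1), which leads to syringyl units, and CYP84A4 also form a complete family. FAH1 had 26.1 and 22.2 in replicates 2 and 3, at sites 1351 bp apart. CYP84A4 had 25.0 and 146 in replicates 1 and 3, with an overlap of 568 bp. The neighbours CYP710A1 and CYP710A2, which encode sterol desaturases, had 47.7 and 128 in replicates 1 and 3 and 23.3 and 31.0 in replicates 1 and 2, all from peaks wholly inside the gene. CYP71B26 (22.9 and 29.7) and CYP81H1 (21.3 and 20.4) were bound in replicates 1 and 2, and the CYP81H1 peaks lay 2482 bp apart.

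**Figure D3:**
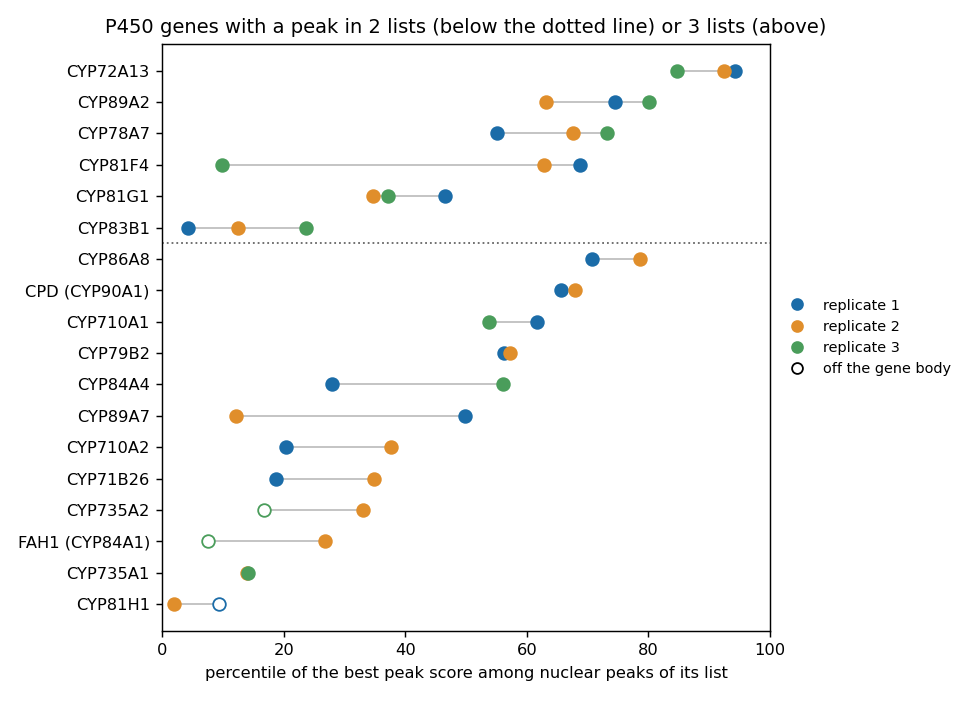
Percentile of the best peak score among the nuclear peaks of its own list (x axis, %) for the 18 P450 genes bound in 2 lists (below the dotted line) or 3 lists (above); colours are replicates and open circles mark lists with no peak on the gene body. CYP72A13 stands at the 84.7th percentile or higher in every list, while CYP83B1 stays at or below the 23.7th.

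Of the 105 peaks, 11 had a score of at least 100, and they counted for 8 P450 genes. In replicates 1, 2 and 3 such peaks were 6.98%, 5.26% and 25.0% of the peaks at P450 genes. Among peaks at all protein-coding genes the shares were 19.5%, 24.9% and 45.8%. Besides those of CYP72A13, CYP89A2, CYP78A7, CYP84A4, CYP710A1 and CYP86A8, the strong peaks were at CYP94C1 and CYP96A8. CYP94C1, which encodes an enzyme that oxidises and so inactivates the active jasmonate, scored 839 in replicate 1 from a peak 512 bp outside the gene (chromosome 2, 11811792 to 11813704). The nearest replicate 2 peak scored 1123 and lay 1014 bp from CYP94C1, just past the limit of 1000 bp. At CYP96A8 the replicate 3 peak was 991 bp away with a score of 505, while the replicate 1 and 2 peaks, with 502 and 534, were 1039 and 1019 bp away. Counted by merged regions with a peak of all 3 lists, both genes qualified and CYP83B1 did not, which gave 7 P450 genes (2.99%) against 6.68% of all genes. For 6 of the 11 strong peaks, the annotated locus overlapped by most bases was not a P450 gene. For the CYP94C1 peak that locus, AT2G00840, held 417 of its 1913 bp.

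Families differed in how many of their genes were bound, though most are small. Among the 23 families of 3 or more genes, CYP89, CYP706 and CYP710 were above the share of all genes in every list, and CYP71, CYP705, CYP76 and CYP96 were below it in every list. CYP89 had 3, 2 and 2 of 6 genes bound in replicates 1, 2 and 3, and CYP710 had 2, 1 and 1 of 4. The 7 CYP706 genes had 2, 2 and 1 bound, always different genes: CYP706A2 and CYP706A7 in replicate 1, CYP706A1 and CYP706A4 in replicate 2 and CYP706A3 in replicate 3. The peaks of CYP706A4 and CYP706A3 lay 686 and 634 bp outside these genes. On gene bodies alone CYP706 had 2, 1 and 0 genes bound, so in replicate 3 it was below the 7.36% of all genes. The largest family, CYP71, had 8, 5 and 2 of 49 genes bound (16.3%, 10.2% and 4.08%), and none in all lists.

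Within CYP71 the subfamilies were unequal. CYP71B had 8, 4 and 2 of 33 genes bound, while among the 16 CYP71A genes CYP71A25 alone was bound, in replicate 2 (33.3). The CYP705 family, some of whose members act in triterpenoid metabolism, had 3, 0 and 2 of 24 genes bound. CYP81 had 3, 4 and 4 of 17. None of the 8 CYP76 genes had a peak in any list, nor had any gene of 15 other families, 12 of them with a single gene, such as CYP73 with C4H and CYP711. With so few genes per family, 1 peak moves a share by many points, and the differences between families were not tested.

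**Figure D4:**
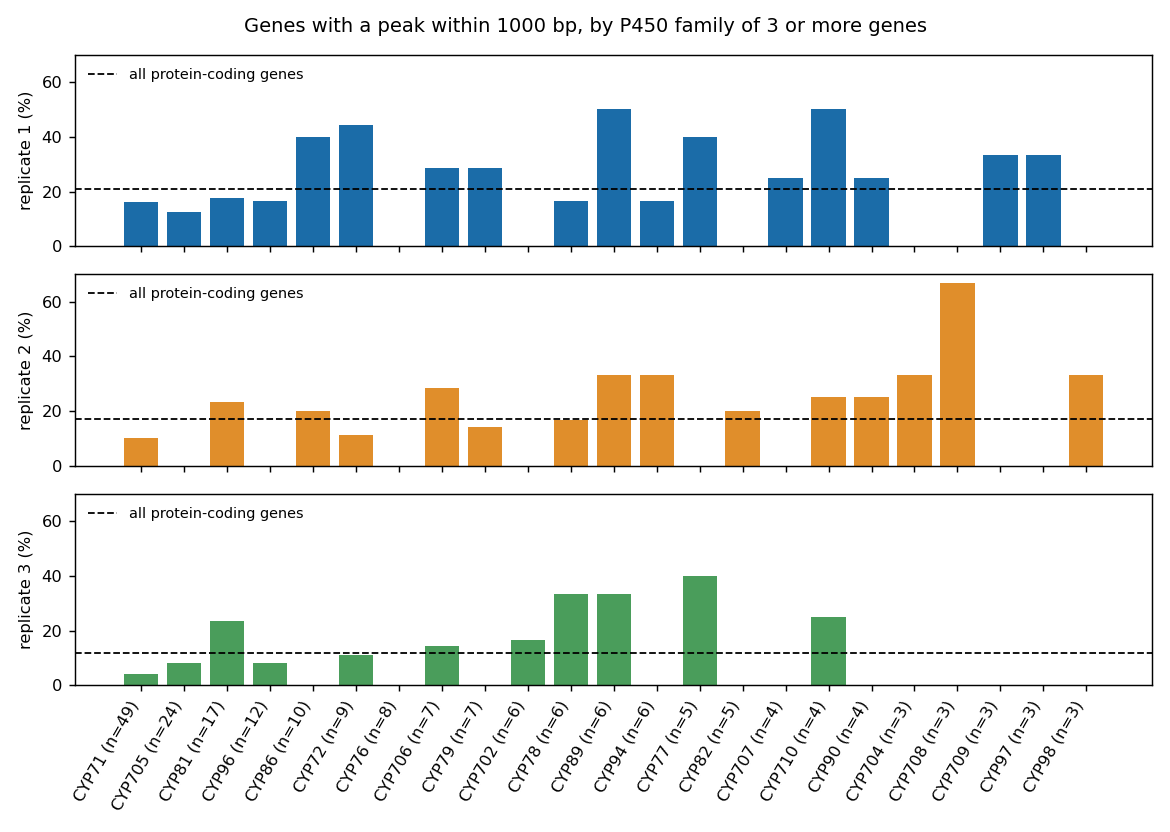
Share of genes with a peak within 1000 bp (%, y axis, one panel per replicate) in each P450 family of 3 or more genes, ordered by family size; the dashed line is the share of all protein-coding genes in that list. CYP71 bars stay below the line in all 3 panels (16.3%, 10.2% and 4.08%) and CYP76 has none, while CYP89 stays above in all 3 (3, 2 and 2 of 6 genes).

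By clan, 148 genes belong to the CYP71 clan and 86 to the others. The CYP71 clan had 17.6%, 12.8% and 12.2% of its genes bound in replicates 1, 2 and 3, and the other clans together 22.1%, 15.1% and 8.14%. The difference of -0.927 ± 4.43 percentage points (SD, n = 3) was smaller than its spread and changed sign in replicate 3. The CYP72 clan had 6, 3 and 3 of 19 genes bound, the CYP85 clan 3, 4 and 1 of 26 and the CYP86 clan 7, 5 and 1 of 31. The smaller clans, of CYP51, CYP74, CYP97, CYP710 and CYP711, had 3, 1 and 2 of 10.

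Tandem clusters, here neighbouring P450 genes of the same family with at most 1 other protein-coding gene between them, held 117 of the 234 genes in 35 clusters. The other 117 genes were single. Tandem genes were bound in 21, 14 and 11 cases (17.9%, 12.0% and 9.40%) and single genes in 24, 18 and 14 (20.5%, 15.4% and 12.0%). The share was lower in tandem genes in each list, with a difference of -2.85 ± 0.493 percentage points (SD, n = 3). Its mean was below 0 under each alternative tried. With a score of at least 100 it was -0.855 ± 0.855 points, and in replicate 2 both shares were then 0.855%. The difference for any peak is 3 or 4 genes of 117 in a list, neighbours in a cluster can share a peak, and no test was run. In all 3 lists 2 tandem and 4 single genes were bound.

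Of the 35 clusters, 18 had no peak at any gene, among them the CYP705A15 to CYP705A23 cluster of 7 genes, the CYP76C4 to CYP76C3 cluster of 4 and the CYP705A1 to CYP705A4 cluster of 4. The other 17 had peaks, and 13 of them at 2 or more genes. The 40 peaks at clusters included 10 that lay within 1000 bp of more than 1 P450 gene, so neighbouring calls are often the same peak. In the CYP72A7 to CYP72A15 cluster of 8 genes, a replicate 1 peak with a score of 42.4 counted for CYP72A8 and CYP72A9 and another with 23.1 for CYP72A9 and CYP72A10. These 3 genes had no peak in replicates 2 and 3, although the same cluster holds CYP72A13, with the strongest peaks of all P450 genes.

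The CYP71B16 to CYP71B24 cluster of 9 genes had peaks in replicate 1 alone, 2 of them (22.0 and 23.2), which counted for CYP71B23, CYP71B3 and CYP71B24 at one end. In the CYP71B25 to CYP71B37 cluster of 7, CYP71B26 stood beside CYP71B34 and CYP71B35, which shared 1 replicate 2 peak (24.5). The 4 genes of the CYP71B2 to CYP71B7 cluster were all bound, but by list 3 at CYP71B2 (43.0) and CYP71B7 (22.8) and by list 1 at CYP71B28 and CYP71B29 (24.1, 1 peak). In the CYP705A28 to CYP705A33 cluster, CYP705A32 and CYP705A33 shared a replicate 3 peak (31.6), and CYP705A28 had a replicate 1 peak at the lowest score (20).

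Single shared peaks also accounted for both genes of the pairs CYP71B31 and CYP71B32 (25.2 in replicate 1) and UNE9 (CYP77A7) and CYP77A6 (23.9 in replicate 3), and for CYP81D5 beside CYP81H1 (20.4 in replicate 2). In the remaining clusters with 2 bound genes the peaks were separate. CYP706A4 had 25.6 in replicate 2 and CYP706A7 26.2 in replicate 1, CYP706A1 had 23.6 in replicate 2 and CYP706A2 39.2 in replicate 1, and CYP91A2 (CYP81F1), next to CYP81F4, had 52.6 in replicate 3. The CYP89 and CYP710 clusters are described above. Outside CYP72A13 and CYP710A1, no peak at a tandem cluster reached a score of 100.

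**Figure D5:**
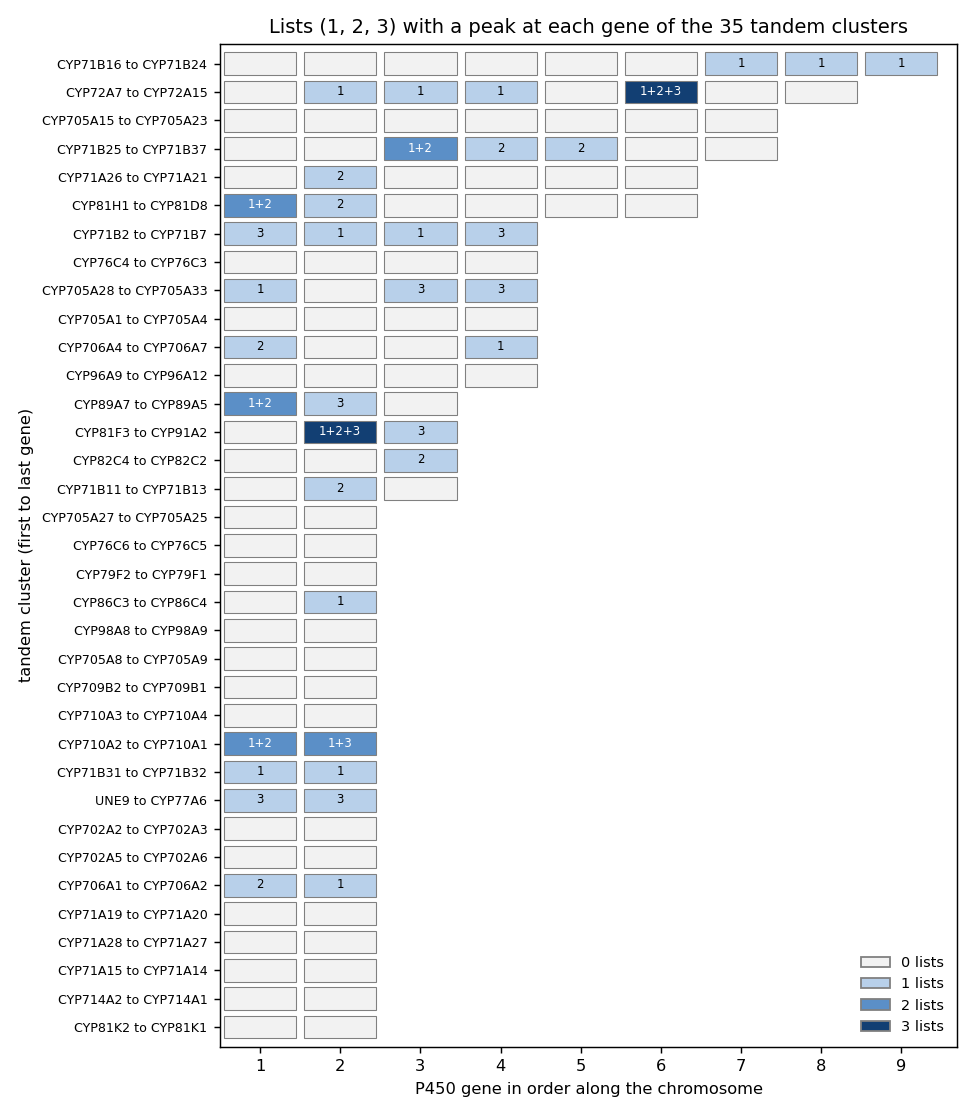
The 35 tandem clusters (y axis, named by first and last gene), with each P450 gene as a box in chromosome order (x axis); numbers in a box are the replicate lists with a peak within 1000 bp, and darker boxes have more lists. CYP72A13 and CYP81F4 are the 2 boxes with all 3 lists, and 18 clusters have no filled box.

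The pathway counts that follow can each be read against the 31.7% of all genes bound in at least 1 list and the 19.7% bound in exactly 1. They rest on few genes, and no pathway was tested against another or against all genes. Of 9 brassinosteroid genes, CPD alone was bound, and DWF4 (CYP90B1), which catalyses an early and rate-limiting step, had no peak, like BR6OX1 and BR6OX2 of the last steps and BAS1, which inactivates the hormone. Of 5 gibberellin genes KAO2 (CYP88A4) was bound, in replicate 1 (30.9), while GA3 (CYP701A3) and CYP88A3 were not. The KAO2 peak lay 300 bp outside that gene and wholly on the neighbouring gene AT2G32450. Of 4 abscisic acid hydroxylase genes CYP707A4 was bound, in replicate 1 (21.1), while CYP707A1 and CYP707A2 were not. Of 4 cytokinin and strigolactone genes, CYP735A1 and CYP735A2 were bound and CYP711A1 and CYP722A1 were not.

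Among 6 jasmonate and oxylipin genes 5 had a peak, 4 of them in 1 list alone. Of these 5, AOS (allene oxide synthase, CYP74A) is not a member by its name and had 25.3 and 65.6 in replicates 1 and 2. CYP94B1 (21.8) and CYP94B3 (47.9), whose enzymes hydroxylate the active jasmonate, were bound in replicate 2, HPL1 (CYP74B2) in replicate 3 (69.2) and CYP94C1 in replicate 1 (839). CYP94B2 had no peak. Of the 5 sterol genes, CYP710A1 and CYP710A2 were bound and CYP51G1, the sterol demethylase gene, and CYP710A3 were not.

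In specialised metabolism, 6 of 15 glucosinolate and camalexin genes were bound in some list: CYP83B1, CYP81F4, CYP79B2, CYP79B3, CYP91A2 (CYP81F1) and CYP82C2 (21.6 in replicate 2). CYP79A2 and CYP79F1 had no peak, nor had CYP71A12, CYP71A13 and PAD3 (CYP71B15) of the camalexin branch. Of 7 phenylpropanoid genes FAH1, CYP84A4 and CYP98A3 (39.6 in replicate 2) were bound, and C4H, the first P450 of the pathway, and TT7 (CYP75B1), the flavonoid hydroxylase gene, were not. Of 5 genes of triterpenoid gene clusters, CYP705A5 (25.2 in replicate 1) and CYP708A2 (41.1 in replicate 2) of the thalianol cluster and CYP705A12 (25.4 in replicate 1) were bound, and CYP71A16 and CYP705A1 were not.

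Among 11 genes of cutin, suberin, wax and pollen wall formation 7 were bound, 6 of them in 1 list alone. Replicate 1 had CYP86A2 (43.3), CYP77A4 (24.1) and CYP96A15 (21.8), replicate 2 had CYP86A1 (23.2), of root suberin, and CYP704B1 (48.0), of the pollen wall, replicate 3 had CYP77A6 (23.9), and CYP86A8 was the gene in 2 lists. The peaks counted for CYP96A15, CYP704B1 and CYP77A6 lay 725, 911 and 266 bp outside these genes. Of the CYP704B1 peak, 950 of 989 bp were on the neighbouring gene NAP, and the CYP77A6 peak lay wholly inside UNE9 (CYP77A7). CYP86A4 and CYP86A7 had no peak. Of 3 carotenoid hydroxylase genes CYP97B3 had 32.0 in replicate 1, from a peak 178 bp outside the gene. CYP97A3 and LUT1 (CYP97C1) had no peak.

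The 79 members in these pathway lists, which hold the better studied P450 genes, were bound in 19, 17 and 12 cases (24.1%, 21.5% and 15.2%), and the 155 members in no list in 26, 15 and 13 (16.8%, 9.68% and 8.39%). Beside the 20.8%, 17.1% and 11.7% of all genes, the listed P450 genes lay above and the unlisted ones below in each replicate. At least 2 lists held a peak at 12 of the 79 (15.2%) and at 6 of the 155 (3.87%), against 11.9% of all genes. The listed genes were also longer, with a median of 2450 bp against 2018 bp for the unlisted ones, and the part of length in the difference was not tested. The lists were drawn up by hand with earlier results of these data known, so the split was not tested.

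Genes listed as partners of the P450s were looked at in the same way, again beside 31.7% of all genes bound in at least 1 list. A list of 11 electron donor and related genes had 3 bound. They were the reductase gene ATR1 (24.6 in replicate 1), MAPR3 (21.8 in replicate 1) and AT3G02280 in all 3 lists (22.7, 1805 and 602). ATR2 and the 5 CB5 genes, which encode cytochrome b5, had no peak. A place on this list does not make MAPR3 or AT3G02280 an electron donor of P450s. Of 15 phenylpropanoid and flavonoid partners 5 were bound, with 4CL1 in all 3 lists (24.2, 54.4 and 137) and PAL2 (55.9 and 67.4 in replicates 1 and 2) and TT4, which encodes chalcone synthase (60.4 and 27.0 in replicates 1 and 3), in 2. Among 13 glucosinolate partners, FMO GS-OX1 (36.2) and GGP1 (25.0) were bound, both in replicate 1 alone. Of 6 brassinosteroid partners 5 were bound, with the receptor gene BRI1 in all 3 lists (27.1, 50.1 and 160). The others were bound in 1 list each: DET2, BES1 and BIN2 in replicate 1 and BZR1 in replicate 3.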

How the data were processed

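The submitters' processing notes name the build TAIR10 and the tools MACS 1.4, SAMtools 1.3 and Bowtie2 2.2.8. The sources used here do not state the calling threshold or the use of the input. The lowest score was 20 in each list, so peaks were kept down to that score. Median scores of the peaks at P450 genes (25.4, 28.6 and 38.4) lay nearer to 20 than to 100, so many of the calls rest on weak peaks. Each ChIP sample has its own deposited list, with a start, an end and a score for every peak, so calling was per sample. The score is the authors' own value. Scores were used only within a list, and percentiles are among its nuclear peaks, with higher scores set to 3100. Depth cannot be read from the lists. No 2 lists shared more than 1 identical peak, so none was a copy of another.

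Genes were placed with a RefSeq table (assembly TAIR10.1), on the assumption that TAIR10 has the same nuclear coordinates. As a check, 64.6%, 63.9% and 48.0% of peak midpoints of replicates 1, 2 and 3 lay in a protein-coding gene. After shifts of 1000 to 50000 bp it was 51.3% to 53.1%, 46.0% to 51.8% and 37.5% to 44.9%, so the margin was smallest in replicate 3. None of its coordinates is printed, and it holds no strand, exons or sequence, so planned promoter and protein sequences were not analysed here. BAS1 and CYP91A2 were placed in families CYP734 and CYP81, after their synonyms. Python 3.11.15 with pandas 2.3.3 was used, and the overlap code was tested on simulated peaks. Groups came from the sample titles.

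The members and lists were chosen with earlier results of these data known. Named genes are every P450 gene bound in 3 or 2 lists, the 3 highest scores of each list, every gene of a pathway list with a peak and up to 2 without, and clusters with 2 or more bound genes. Other genes named (CYP89A9, CYP96A8 at its other peaks, CYP706A3, CYP71A25, further genes without a peak, partner genes and unbound clusters) were chosen after their values were seen. Alternatives were other flanks, a score of at least 100, equal lists of 3661 peaks, 50% of the peak in the window, 1 gene per peak, symbols alone, other cluster gaps and leaving out each replicate.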

Additional observations from a re-analysis of the deposited data

How the results depend on the processing

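With peaks of a score of at least 100 alone, 3, 2 and 6 P450 genes were bound in replicates 1, 2 and 3, 2 genes (0.855%) in at least 2 lists and 1 (CYP72A13, 0.427%) in all 3, against 4.54% and 3.36% of all genes, the P450 share minus that of all genes was -3.54 points and tandem minus single -0.855 points. With lists of equal length 20 P450 genes were bound in replicate 1, and the 2 differences were -3.41 and -3.70 points. With gene bodies alone the P450 share minus that of all genes was -0.308 points, and with 1 gene per peak it was 0.156 points, with 3 genes (1.28%) in all lists against 3.76% of all genes. CYP71 clan minus other clans reversed to 0.183 points with gene bodies alone and to 0.560 with at least 50% of the peak in the window. Tandem minus single was -2.28 points with a 500 bp flank, -1.99 with at least 50% of the peak in the window, -4.27 with 1 gene per peak, -3.59 with symbols alone and -3.50 with no gene between neighbours. Leaving out a replicate gave 8 to 13 P450 genes bound in both remaining lists (9, 8 and 13 without replicates 1, 2 and 3, or 3.85%, 3.42% and 5.56%, against 7.05%, 7.30% and 9.76% of all genes), a P450 difference of -2.53 to -1.32, tandem minus single of -2.99 to -2.56 and CYP71 clan minus other clans of -3.40 to 0.872 points, above 0 without replicate 1. The cause of these changes was not tested. The unknown depth limits what a missing peak says. No paired analysis was possible because no result came from a test between ChIP and input samples, and the input samples had no separate values used here.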

Other observations

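P450 loci outside the rule numbered 19, of which 12 are annotated as transcribed pseudogenes. Peaks lay within 1000 bp of 4 of these 12, each in 1 list and each near the lowest score: CYP71B18 had 20.4 in replicate 1, and CYP71B27, CYP51G2 and CYP702A7P had 20.8, 22.6 and 20.7 in replicate 2. How often pseudogenes at large had a peak was not counted, and 31.7% of all protein-coding genes had one in at least 1 list. Of the 7 protein-coding loci with P450 names that the rule leaves out, CYP718 had 25.6 in replicate 1 and AOS is given above.

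By chromosome, the number of bound P450 genes in replicates 1, 2 and 3 was 8, 5 and 7 of 46 on chromosome 1 and 6, 3 and 1 of 36 on chromosome 2. It was 14, 6 and 6 of 64 on chromosome 3, 10, 9 and 5 of 45 on chromosome 4 and 7, 9 and 6 of 43 on chromosome 5. Of all genes, 20.4% to 21.4% were bound on each chromosome in replicate 1, 16.6% to 17.8% in replicate 2 and 10.9% to 12.4% in replicate 3. The differences between chromosomes were not tested. The limit of 1000 bp left out some strong peaks by few bases: besides those near CYP94C1 and CYP96A8, a replicate 2 peak with a score of 690 lay 1038 bp from CYP86C2, which was called bound in replicate 1 alone (22.9).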
